A study of Mus musculus with 61 samples.

Results

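The 6 genes described here are the complement components C3, C4b, C1qa, C1qb and C1qc and the complement inhibitor Serping1, taken by name from a table of 15149 genes in sorted retinal cells. All 6 were present in the table. Their values were not used to choose them by a threshold, but they were chosen with earlier results of these data known.

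Complement is a cascade of secreted proteins that marks surfaces for removal. C1q, a hexamer of trimers built from the products of C1qa, C1qb and C1qc, starts the classical pathway by recruiting the proteases C1r and C1s, which cleave C4 and C2 and so lead to cleavage of C3, whose fragments tag synapses, debris and cells for phagocytes with complement receptors. Serping1 encodes C1 inhibitor, the serpin that inactivates C1r and C1s. In the retina and brain C1q is known mainly as a product of microglia and other macrophages, C3 and C4b are produced by reactive glia among other cells, and complement has been tied to early synapse and axon changes in DBA/2J glaucoma.

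The 61 libraries of RNA sequencing came from mice in 5 groups. DBA/2J is an inbred strain in which an iris disease caused partly by mutant Gpnmb raises eye pressure and leads to glaucoma in older animals. It gave 10 libraries at 4 months and 25 at 9 months on water. D2-Gpnmb+ mice, which carry a functional Gpnmb allele on the same background and serve as the control that does not develop glaucoma, gave 10 libraries at 4 months and 9 at 9 months on water. The last group of 7 libraries came from DBA/2J mice of 9 months given nicotinamide, an NAD precursor, at a dose of 500 mg/kg/day. All retinas were from eyes in which the labels describe no axon degeneration, and in all groups the sort kept cells with Thy1.2 on their surface and removed those with Cd11b, Cd11c, Cd34, Cd45.2 or GFAP. The labels call the sorted cells retinal ganglion cells. Because no label says that each library is its own animal, p values cover only the spread among these libraries.

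Values are deposited read counts normalised by library, called normalised values here. Recovered reads per library ran from 5133114 to 19501444, and 1 read was worth a normalised value of 0.0564 to 0.2154. Of the markers of ganglion cells, Thy1 ran from 7.61 to 84.1 and Rbpms from 0.860 to 23.9, with both present in all 61 libraries. Glul, a Müller glia marker, was present in all of them too, from 88.2 to 8024. The columns of the table fall into 3 stretches that stood apart in expression, here called blocks 1, 2 and 3, whose meaning the labels leave out. Of the 9-month libraries on water, 6 DBA/2J and 4 D2-Gpnmb+ are in block 1, 16 and 2 in block 2, and 3 of each strain in block 3, which also has every 4-month and every nicotinamide library. Age and treatment can therefore be compared within a block only in block 3, and each result below is given for all libraries and for block 3. In such bulk samples, fewer cells of a type and less RNA per cell cannot be told apart.

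All 6 genes lie on the reverse strand of the mouse build GRCm38. C3 is on chromosome 17 from 57203970 to 57228136, and C4b is on the same chromosome from 34728380 to 34743882. Serping1 is on chromosome 2 from 84765387 to 84775444. The 3 C1q genes are neighbours on chromosome 4, with C1qb from 136880129 to 136886187, C1qc from 136889804 to 136893065 and C1qa from 136895917 to 136898803. C4b has a near-identical neighbour, C4a, and counting could split reads between them, so values of both are uncertain. C4a was low in this table, with normalised values from 0 to 3.16 over the 61 libraries.

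Promoter windows from RefSeq were at hand for 3 of the 6 members, C3, C1qb and C1qc, and those of C4b, Serping1 and C1qa are named only. All 3 windows at hand are shown, with no choice by the values of the genes. Each runs 5′ to 3′ on the strand of the gene from 250 bases before to 50 bases after the annotated start, in build GRCm38.p6, at chr17:57228087-57228386 for C3, chr4:136886151-136886450 for C1qb and chr4:136892865-136893164 for C1qc. Capitals mark matches to 5 motifs searched on both strands, which are described after the sequences.
C3: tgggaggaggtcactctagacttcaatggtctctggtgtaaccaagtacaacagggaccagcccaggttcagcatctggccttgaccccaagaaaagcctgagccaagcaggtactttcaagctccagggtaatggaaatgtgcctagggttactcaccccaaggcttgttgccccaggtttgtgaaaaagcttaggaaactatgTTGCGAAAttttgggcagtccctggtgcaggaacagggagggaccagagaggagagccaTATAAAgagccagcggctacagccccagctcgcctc
C1qb: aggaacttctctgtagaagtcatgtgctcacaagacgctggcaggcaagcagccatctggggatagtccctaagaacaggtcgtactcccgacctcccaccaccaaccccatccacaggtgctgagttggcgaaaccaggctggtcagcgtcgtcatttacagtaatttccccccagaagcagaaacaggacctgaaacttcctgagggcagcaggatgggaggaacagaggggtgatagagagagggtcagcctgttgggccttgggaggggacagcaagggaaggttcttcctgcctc
C1qc: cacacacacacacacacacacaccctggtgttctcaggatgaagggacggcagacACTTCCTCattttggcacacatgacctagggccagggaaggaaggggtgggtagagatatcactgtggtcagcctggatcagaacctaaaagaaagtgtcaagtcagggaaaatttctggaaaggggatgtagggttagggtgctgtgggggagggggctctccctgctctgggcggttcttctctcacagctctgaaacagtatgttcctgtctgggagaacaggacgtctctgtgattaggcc

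The motifs were the STAT site TTCNNNGAA, an interferon response core GAAANNGAA, the core of the myeloid factor PU.1 GAGGAAGT, a C/EBP motif TTGCNNAA and the TATA box TATAAA. The C3 window held a C/EBP match, TTGCGAAA, from 45 to 38 bases before the annotated start, and TATAAA from 14 to 19 bases after it. The C1qc window held the PU.1 core on the opposite strand, read as ACTTCCTC, from 195 to 188 bases before the start. The C1qb window held none of the 5. Of 32851 promoter windows of the same length, 10.8% held the C/EBP motif, 13.6% the TATA box, 3.20% the PU.1 core, 8.30% the STAT site and 8.56% the interferon core. No match overlapped another, and a match describes letters, not a site in use.

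**Figure D1:**
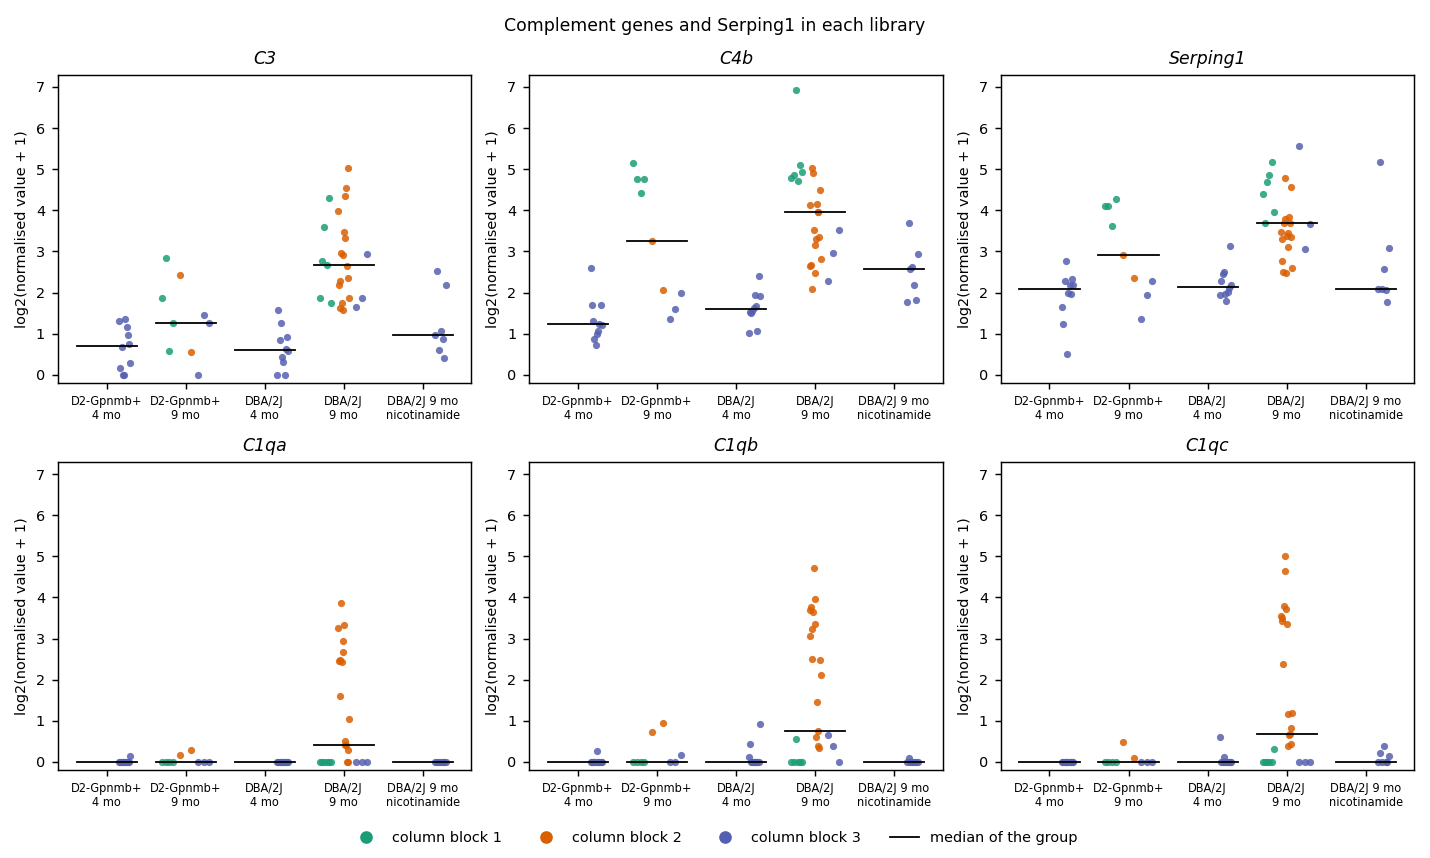
Level of each of the 6 genes in every library, as log2 of the normalised value plus 1 (y axis), by group (x axis). Each point is 1 library, coloured by column block, and the black line is the median of the group. C3, C4b and Serping1 sit higher in 9-month DBA/2J than in 4-month DBA/2J, and all C1q values above 1 on this scale are in block 2.

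Per kilobase of exon, the order of the members in DBA/2J at 9 months was Serping1 with a mean normalised value of 6.43, C1qb with 4.34, C4b with 3.43, C1qc with 2.68, C1qa with 2.35 and C3 with 1.59. In DBA/2J at 4 months Serping1 again led, at 1.67 per kilobase, followed by C4b at 0.385, C3 at 0.130, C1qb at 0.121 and C1qc at 0.0316, and C1qa had no read. In the 16 DBA/2J libraries of block 2 the order was different, with C1qb at 6.70 per kilobase, Serping1 at 4.69, C1qc at 4.19, C1qa at 3.67, C4b at 2.26 and C3 at 1.78.

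The first comparison asked what changes between 4 and 9 months in DBA/2J, before axon loss is visible. C4b and Serping1, which had a value of at least 1 in all libraries of both ages, were higher at 9 months with an adjusted p under 0.05 (limma, Benjamini-Hochberg over all genes tested), among 13587 genes of which 9.25% were higher. The other 4 members were called too, but they could be tested only because of the 9-month group, so their calls add nothing to a count. C3 reached 1 in 25 libraries at 9 months and 2 at 4 months, and C1qa, C1qb and C1qc in 10, 12 and 11 libraries, all of 9-month DBA/2J in block 2. For C3, C4b and Serping1 the 9-month median of each of the 3 blocks lay above the 4-month median. For the C1q genes only that of block 2 did, apart from a C1qb median of 0.316 in block 3.

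C3, the protein on which all complement pathways converge, had normalised values in 4-month DBA/2J from 0 to 1.98 with a median of 0.526, and in 9-month DBA/2J from 2.00 to 31.6 with a median of 5.39. All 25 libraries at 9 months lay above the highest at 4 months. The share of all genes that separate the ages in this way was not counted, and blocks 1 and 2 hold no 4-month library. The log2 fold change, on values plus 1 and so too small for low genes, was 2.16 ± 0.33 (SE, n = 25 and 10, limma adjusted p = 6.01e-05). By block, the 9-month medians of C3 were 5.61 in block 1, 5.93 in block 2 and 2.64 in block 3. In block 3 the 3 libraries at 9 months had 2.13, 2.64 and 6.68, also above all 10 at 4 months.

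C4b, the classical pathway component cleaved by C1s, ran from 1.04 to 4.24 with a median of 2.03 at 4 months and from 3.26 to 119.7 with a median of 14.5 at 9 months. Of the 25 libraries at 9 months, 23 lay above the highest at 4 months. C4b differed by a log2 fold change of 2.25 ± 0.35 (SE, limma adjusted p = 8.44e-05). The 9-month level differed by block, with a median of 28.7 in block 1, 9.85 in block 2 and 6.75 in block 3. The highest value, 119.7, was in library 3 of block 1, and without it the log2 fold change was 2.12.

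Serping1 ran from 2.47 to 7.82 with a median of 3.41 at 4 months and from 4.58 to 46.0 with a median of 11.9 at 9 months. Of the 25 libraries at 9 months, 19 lay above the highest at 4 months. The fitted log2 fold change of Serping1 was 1.51 ± 0.26 (SE, limma adjusted p = 0.000204). Block medians at 9 months were 22.4 in block 1, 9.68 in block 2 and 11.7 in block 3.

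Within block 3, 3 members could be tested for age in DBA/2J and 1 was called higher, against 0.219% of 13670 genes. Serping1 had 45.96, 7.38 and 11.74 in the 3 libraries at 9 months, and its log2 fold change was 1.86 ± 0.38 (SE, n = 3 and 10, limma adjusted p = 0.0457). The value of 45.96 belongs to library 26, which had the fewest reads of the 61, and without it the log2 fold change was 1.13 and the limma adjusted p 0.508. Serping1 passed in 2 of the 13 fits that each left out 1 library, those without 9-month library 27 or 4-month library 9. C3 had a log2 fold change of 1.495 ± 0.34 and C4b of 1.30 ± 0.29 (SE, limma adjusted p = 0.0800 for both), and neither passed the threshold. All 3 had an unadjusted p under 0.05, as had 1465 of all 13670 genes. C3 reached 1 in 2 of the 10 libraries at 4 months. Here too it could be tested only because of the 9-month group, and it adds nothing to these counts. On recovered reads edgeR and DESeq2 each called 2, C4b and Serping1. The share of all genes that edgeR and DESeq2 called is not given here or below, so their counts of members are not read as results. With the block as a term in a fit of all libraries, 0 of 6 members were called by limma, and the adjusted p of Serping1 was 0.0502. Only block 3 holds both ages, so these fold changes equal those of block 3.

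**Figure D2:**
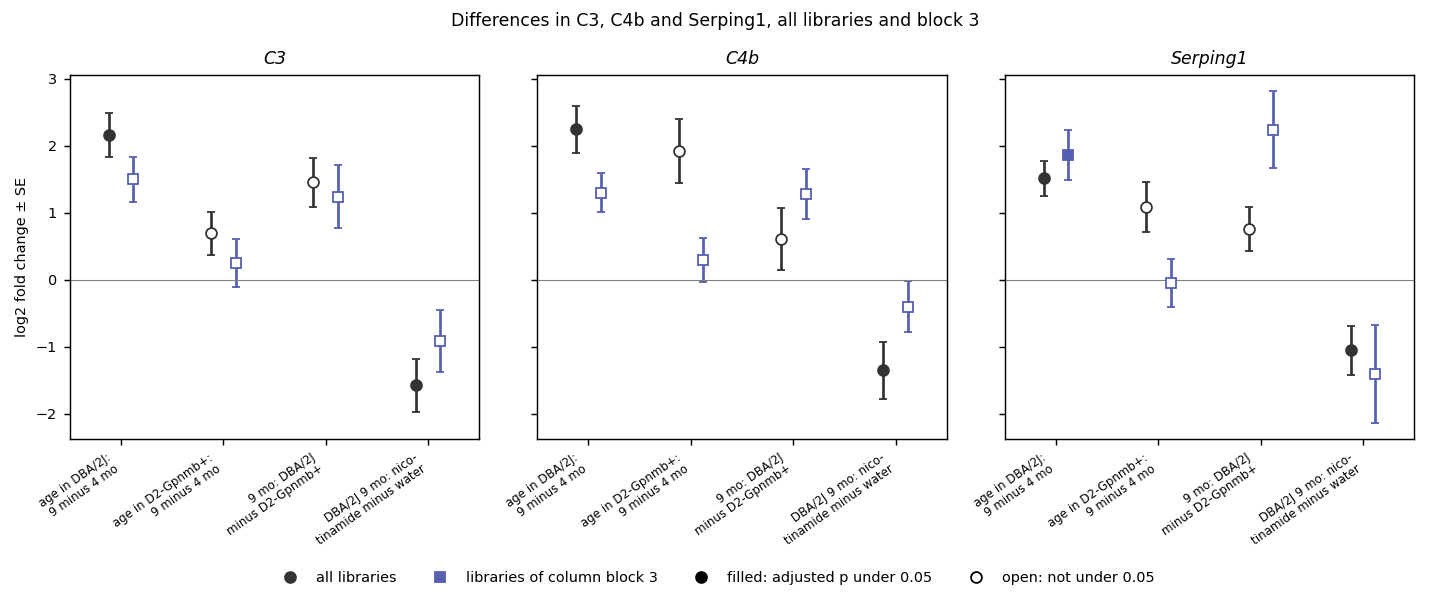
Log2 fold change with its standard error (y axis) of C3, C4b and Serping1 in 4 comparisons (x axis), for all libraries (dark circles) and for block 3 alone (blue squares). Filled symbols have an adjusted p under 0.05. Age in DBA/2J lies above 0 in both fits for all 3 genes, and age in D2-Gpnmb+ lies nearer 0 in block 3 than over all libraries.

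The 3 C1q genes were at or near 0 in most libraries. Of 3864 reads of C1qa, C1qb and C1qc together, 3785 lay in the 16 DBA/2J libraries of block 2. A further 34 lay in its 2 D2-Gpnmb+ libraries, 10 in the 10 libraries of block 1 and 35 in the 33 libraries of block 3, of which 21 had none. The 16 libraries held 99.2% of the summed value of C1qa, 96.1% of C1qb and 98.6% of C1qc, against a median of 26.1% over all genes. For C3 the share was 59.0%, for C4b 29.8% and for Serping1 29.9%.

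C1qa had no read in the 10 libraries of 4-month DBA/2J, none in the 7 with nicotinamide, and none in the 9-month DBA/2J libraries of blocks 1 and 3. In the 16 of block 2 it ran from 0 to 13.6 with a median of 3.22. Against a floor of 3 reads over the whole 4-month group, its mean of 2.45 over all 25 libraries at 9 months was at least 68.7-fold higher. The fitted log2 fold change of 1.11 ± 0.41 (SE, limma adjusted p = 0.0465) depends on the added 1 and is no bound. The call was lost in each of the 10 fits without 1 of the 4-month libraries (highest limma adjusted p = 0.0695), and in 10 fits without a 9-month library C1qa was too low to be tested.

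C1qb ran from 0.258 to 25.1 with a median of 5.997 in the same 16 libraries, and from 0 to 0.881 in 4-month DBA/2J. In the 3 DBA/2J libraries of block 3 at 9 months it was between 0 and 0.582, which overlaps the 4-month range. Over all libraries C1qb had a fitted log2 fold change of 1.52 ± 0.49 (SE, limma adjusted p = 0.0231), called in all 35 fits that each left out 1 library. C1qc ran from 0.312 to 31.0 with a median of 6.70 in the 16 libraries and had no read in the 3 of block 3. The log2 fold change of C1qc was 1.49 ± 0.53 (SE, limma adjusted p = 0.0392), and it was lost without any 1 of the 4-month libraries or 9-month library 9, 10 or 18 (highest limma adjusted p = 0.0594). Without block 2, none of the 3 genes reached the level needed to be tested, and the 3 members tested, C3, C4b and Serping1, were all called.

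Within the 16 libraries the summed C1q level fell into 2 ranges. It was between 14.7 and 54.7 in 9 libraries and between 0.602 and 5.66 in the other 7. These 9 are the first 9 DBA/2J columns of the block. The sum of 17 microglia and macrophage markers, leaving out the members, ran from 142 to 446 in the 9 and from 21.01 to 53.8 in the 7. C3 ran from 2.00 to 14.8 in the 9 and from 2.67 to 31.6 in the 7, so that its ranges overlapped, as did those of C4b and Serping1.

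Microglia markers were highest in the libraries where the C1q genes were highest. Their sum ran from 9.06 to 18.9 in DBA/2J of block 1, from 7.09 to 15.7 in DBA/2J of block 3 at 9 months, from 8.45 to 13.7 with nicotinamide and from 5.54 to 17.8 in DBA/2J at 4 months. In the 16 libraries of block 2 it ran from 21.01 to 446 with a median of 147. In the 4 D2-Gpnmb+ libraries of block 1, which had 0 C1q reads, the sum ran from 13.8 to 30.1 and so overlapped the lower range of block 2. Csf1r, the receptor on which microglia depend, ran from 1.21 to 60.2 there and from 0 to 0.694 in DBA/2J of block 1. Tyrobp, an adaptor of microglial receptors, ran from 0.416 to 13.5 in these 16 and was at 0 in the 9-month DBA/2J libraries of blocks 1 and 3. With age in DBA/2J, 10 of 14 microglia markers tested were higher and 0 lower, beside 9.25% of 13587 genes that were higher. In block 3, which holds every 4-month library, only 5 microglia markers could be tested and 0 were called. Most of the 14 thus passed the filter on low values only because of the 9-month group, and their count is no test. The sort removed cells with Cd11b and Cd45.2, and whether microglia took part in the C1q values was not tested.

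**Figure D3:**
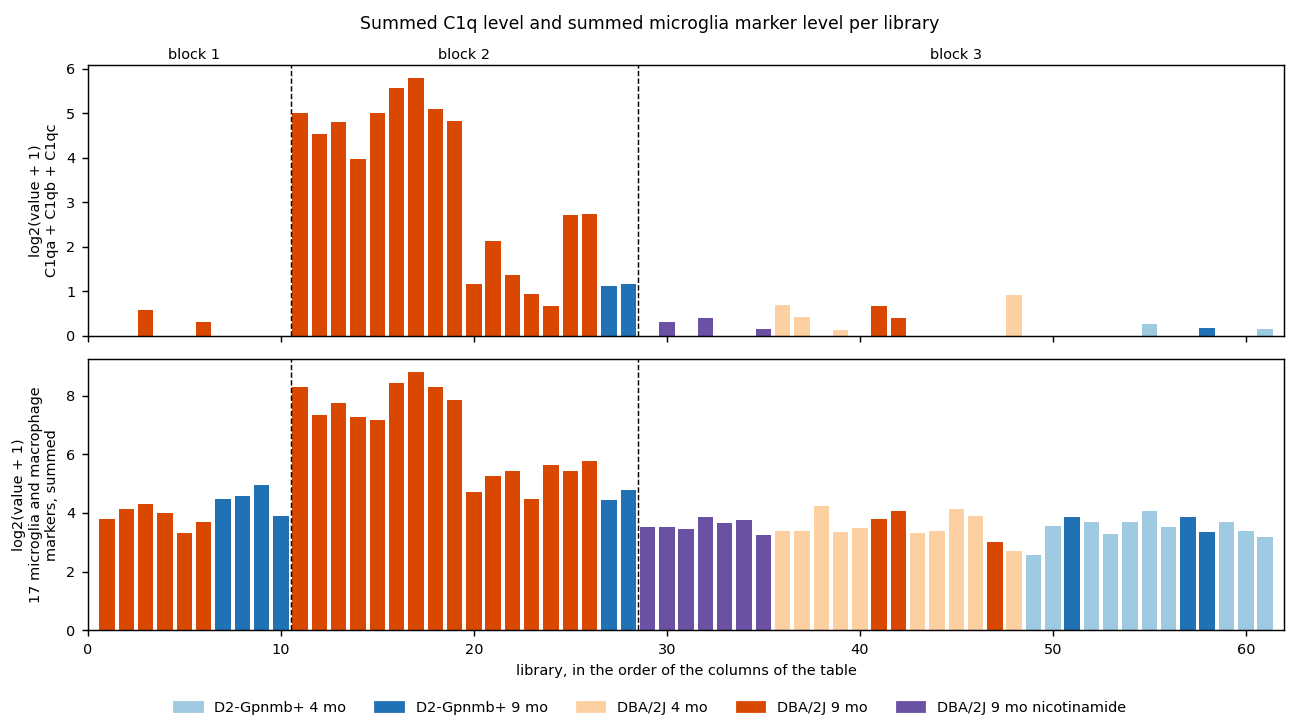
Summed normalised value of C1qa, C1qb and C1qc (top) and of 17 microglia and macrophage markers (bottom), as log2 of the sum plus 1 (y axes), for each library in the order of the columns (x axis), coloured by group. Dashed lines separate the blocks. Both sums are highest in the first 9 libraries of block 2, and C1q is at or near 0 in blocks 1 and 3.

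The second comparison asked what changes between the same ages in D2-Gpnmb+. Only C3, C4b and Serping1 could be tested, and 0 of 3 were called by limma, against 0.0232% of 12910 genes. All 3 had an unadjusted p under 0.05, as had 3917 of all 12910 genes. On recovered reads edgeR and DESeq2 each called 2, C4b and Serping1. The 0.0232% does not apply to these methods, and without their own share these counts are not read as results.

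C3 ran from 0 to 1.58 with a median of 0.636 at 4 months and from 0 to 6.18 with a median of 1.41 at 9 months, with overlapping ranges. C3 had a log2 fold change of 0.69 ± 0.32 (SE, n = 9 and 10, limma adjusted p = 0.152). C4b ran from 0.646 to 5.09 with a median of 1.34 at 4 months. At 9 months its values were 20.49, 26.0004, 26.26 and 34.47 in block 1, 3.19 and 8.57 in block 2, and 1.55, 2.03 and 2.94 in block 3. Only the block 1 values and 1 of the block 2 values lay above the 4-month range. The log2 fold change of C4b was 1.92 ± 0.48 (SE, limma adjusted p = 0.0741), and C4b passed without D2-Gpnmb+ 9-month library 9, 13, 14 or 15 (lowest limma adjusted p = 0.0223).

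Serping1 in D2-Gpnmb+ ran from 0.431 to 5.85 with a median of 3.24 at 4 months. At 9 months it had 11.2, 16.1, 16.3 and 18.3 in block 1, 4.12 and 6.496 in block 2, and 1.55, 2.85 and 3.84 in block 3. As with C4b, the values above the 4-month range were those of block 1 and 1 of block 2. Serping1 had a log2 fold change of 1.08 ± 0.37 (SE, limma adjusted p = 0.0858), and passed without library 13 or 14. Glul was also highest in block 1, from 5554 to 8024 in D2-Gpnmb+ there against 723 to 1303 in block 3 at the same age, and its part in the block 1 values was not tested.

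In block 3 alone, 0 of the 3 members were called for age in D2-Gpnmb+, as was 0% of 13689 genes. The log2 fold changes were 0.24 ± 0.36 for C3, 0.30 ± 0.33 for C4b and -0.05 ± 0.36 for Serping1 (SE, limma adjusted p = 0.999 for each). None had an unadjusted p under 0.05, and edgeR and DESeq2 called 0.

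Whether the change with age differed between the strains was tested as an interaction. Over all libraries 0 of 6 members were called, against 0.375% of 14150 genes, with 0 by edgeR and DESeq2. C3, C1qb and C1qc were at an unadjusted p under 0.05, as were 1820 of all 14150 genes. The 3 C1q genes reached 1 only in older DBA/2J libraries of block 2. They could thus be tested only because of that group, and they add nothing to these counts. C3 had the smallest p, with an interaction of 1.47 ± 0.49 on the log2 scale (SE, limma adjusted p = 0.144). In block 3, 0 of 3 members were called, against 0.0774% of 14219 genes. All 3 were at an unadjusted p under 0.05, as were 1179 of all genes tested there. The interaction of Serping1 was 1.92 ± 0.54 (SE, limma adjusted p = 0.248) and 1.19 without library 26. It passed without DBA/2J library 27. DESeq2 called Serping1 alone there, and edgeR called 0.

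The third comparison set DBA/2J against D2-Gpnmb+ at the same age. At 4 months C4b and Serping1 could be tested and 0 of 2 were called by limma, edgeR or DESeq2, against 0.25% of 12804 genes, with 0 at an unadjusted p under 0.05. Their log2 fold changes were 0.28 ± 0.21 and 0.33 ± 0.22 (SE, n = 10 and 10, limma adjusted p = 0.606 and 0.557). C3 had medians of 0.526 in DBA/2J and 0.636 in D2-Gpnmb+, with overlapping ranges.

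At 9 months 0 of 6 members were called by limma, against 0.0218% of 13755 genes. All 6 had a higher mean log2 value in DBA/2J, 5 of them with an unadjusted p under 0.05, as had 1812 of all 13755 genes. DESeq2 called 3, C3, C1qb and C1qc, and gave no adjusted p for C1qa, and edgeR called 0. C1qa, C1qb and C1qc reached 1 in 10, 12 and 11 DBA/2J libraries and in 0 of D2-Gpnmb+, and C3 in 25 and 6. C3 and the C1q genes could thus be tested only because of DBA/2J, and they add nothing to these counts. The log2 differences of C1qa, C1qb and C1qc were 1.06, 1.46 and 1.4951, and with the block as a term 0.47, 0.64 and 0.69. C3 had a log2 fold change of 1.45 ± 0.37 (SE, n = 25 and 9, limma adjusted p = 0.0987), and 11 of the 25 DBA/2J libraries lay above the highest D2-Gpnmb+ library. Serping1 had 0.76 ± 0.33 (SE, limma adjusted p = 0.303) and C4b 0.61 ± 0.46 (SE, limma adjusted p = 0.588).

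Within blocks, the difference between strains at 9 months had the same sign in each for C3, C4b and Serping1. For C3 it was 1.19 in block 1, 1.45 in block 2 and 1.24 in block 3. C4b had 0.44, 0.88 and 1.27 in the same order. Serping1 had 0.43, 0.79 and 2.24. None of these 9 values passed an adjusted p of 0.05 in limma, and in block 3 the 3 members stood beside 0% called among 12941 genes.

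In block 3, with 3 libraries of each strain, the 2 strains did not overlap for these 3 genes. The share of all genes that did not overlap either was not counted, so this is not read as a result about them. C3 had 2.13, 2.64 and 6.68 in DBA/2J and 0, 1.41 and 1.76 in D2-Gpnmb+. C4b had 3.88, 6.75 and 10.4 in DBA/2J and 1.55, 2.03 and 2.94 in D2-Gpnmb+. Serping1 had 7.38, 11.7 and 46.0 in DBA/2J and 1.55, 2.85 and 3.84 in D2-Gpnmb+. All 3 had an unadjusted p under 0.05, as had 823 of all 12941 genes. C3 reached 1 in 2 of the 3 D2-Gpnmb+ libraries. It could thus be tested only because of DBA/2J, and it adds nothing to this count. Here edgeR called 0 and DESeq2 called Serping1 alone.

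The fourth comparison asked what nicotinamide changes in DBA/2J at 9 months. Over all libraries C4b and Serping1, which had a value of at least 1 in all libraries of both groups, were lower with nicotinamide, against 5.34% of 13925 genes that were lower. C3 and C1qb were called too, but could be tested only because of the water group, with 3 and 0 of the 7 nicotinamide libraries at 1 or more. Markers of other cells differed as well. Of those tested, 6 of 13 for Müller glia, 5 of 15 for microglia, 5 of 10 for pericytes and fibroblasts and 5 of 13 for reactive glia were lower. Higher were 8 of 9 for amacrine and horizontal cells, 8 of 10 for cones and 4 of 14 for ganglion cells, beside 1362 of all 13925 genes. The part of these markers in the members' values was not tested, and none of them was called in block 3. Only 4 microglia markers could be tested there, so most of the 15 passed the filter only because of the water group. All 7 nicotinamide libraries lie in block 3, where the water group has 3 libraries, and there 0 of the 3 members tested were called. This comparison shares its water libraries with the comparison of ages and of strains.

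C3 ran from 0.319 to 4.79 with a median of 0.953 with nicotinamide, against 2.00 to 31.6 and a median of 5.39 with water. Of the 7 libraries, 5 lay below the lowest with water. Its log2 fold change was -1.58 ± 0.40 (SE, n = 7 and 25, limma adjusted p = 0.00663), and it was called in all 32 fits that each left out 1 library. C4b had a median of 4.93 with nicotinamide, between 2.44 and 11.9, and its log2 fold change was -1.35 ± 0.43 (SE, limma adjusted p = 0.0293). C4b was called in 27 of these 32 fits, and not without nicotinamide library 1, 3, 4, 5 or 7 (highest limma adjusted p = 0.0800). Without block 1 it was -0.93 (limma adjusted p = 0.0596).

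Serping1 ran from 2.39 to 35.2 with a median of 3.28 with nicotinamide, and 4 of the 7 libraries lay below the lowest with water. Its log2 fold change was -1.06 ± 0.37 (SE, limma adjusted p = 0.0462), called in 15 of the 32 fits. It was not called without any 1 nicotinamide library other than 2, any 1 of the 6 DBA/2J libraries of block 1, or DBA/2J library 15, 16, 21, 22 or 24 (highest limma adjusted p = 0.134), nor by edgeR or DESeq2. The value of 35.2 was in nicotinamide library 2, where C3 and C4b were highest in the group too, at 4.79 and 11.9. Gfap, the intermediate filament of astrocytes and reactive Müller glia, was 42.7 in that library and 1.06 to 3.36 in the other 6. Without library 2 the log2 fold change of Serping1 was -1.47 (limma adjusted p = 0.00440).

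C1qb had 1 read over the 7 nicotinamide libraries, and its fitted log2 fold change was -1.65 ± 0.58 (SE, limma adjusted p = 0.0490), called in 14 of the 32 fits. It was lost without any 1 nicotinamide library or DBA/2J library 7, 9, 10, 11, 14, 15, 17, 18, 20, 24 or 25 (highest limma adjusted p = 0.0884). C1qa at -1.11 ± 0.49 and C1qc at -1.45 ± 0.63 (SE, limma adjusted p = 0.116 and 0.109) did not pass in limma, while edgeR and DESeq2 called both. Like C1qb, both could be tested only because of the water group. C1qa had no read with nicotinamide, and against a floor of 3 reads over that group it was at least 64.5-fold higher with water. The water libraries of block 3 had no C1qa or C1qc read either. C1qb was 0, 0.316 and 0.582 in them, and at most 0.0786 with nicotinamide. Without the filter on low values its log2 fold change in block 3 was -0.34 ± 0.16 (SE, limma adjusted p = 0.306, unadjusted p = 0.0484).

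Within block 3, 0 of 3 members were called for nicotinamide by limma, edgeR or DESeq2, against 0.00749% of 13352 genes, and 0 had an unadjusted p under 0.05. C3 differed by -0.91 ± 0.46, C4b by -0.40 ± 0.38 and Serping1 by -1.40 ± 0.73 on the log2 scale (SE, n = 7 and 3, limma adjusted p = 0.338, 0.650 and 0.365). The water values of C3 in this block, 2.13, 2.64 and 6.68, overlap those with nicotinamide through libraries 2 and 8, which had 4.79 and 3.57. The same holds for Serping1, where library 2 at 35.2 and library 8 at 7.47 lay above the lowest water library.

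Nicotinamide-treated DBA/2J was also set against the other groups. Against D2-Gpnmb+ at 9 months 0 of 3 members were called by limma, edgeR or DESeq2, as was 0% of 13054 genes, with 0 at an unadjusted p under 0.05 in limma. In block 3 0 of 3 were called, against 0.299% of 13377 genes, with C4b at an unadjusted p of 0.0223, a log2 difference of 0.87 ± 0.34 and a limma adjusted p of 0.220. Over all libraries the difference of C4b was -0.75 ± 0.57 (SE), so its sign turned between the 2 fits, as it did for C3, at -0.13 and 0.32, and for Serping1, at -0.30 and 0.84.

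Against DBA/2J at 4 months, 0 of 2 members were called by limma, against 1.54% of 13024 genes, and edgeR and DESeq2 each called C4b. The log2 difference of C4b was 0.89 ± 0.24 (SE, n = 7 and 10, limma adjusted p = 0.0600, unadjusted p = 0.00113), with 4 of the 7 libraries above the highest at 4 months. It passed without nicotinamide library 1 or 4-month library 9, and without nicotinamide library 2 it was 0.70. Serping1 differed by 0.46 ± 0.37 (SE, limma adjusted p = 0.621), and by 0.04 without nicotinamide library 2.

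Of 61 other complement genes listed, 39 were in the table. With age in DBA/2J, 28 were tested, and 5 were higher and 4 lower, beside 1257 higher and 1787 lower of all 13587 genes. Lower ones were thus about as frequent as among all genes. The median log2 fold change of the 28 was 0.18 against 0.02 over all genes tested. Among the higher ones were the inhibitor Clu, at 1.45 ± 0.28 on the log2 scale (limma adjusted p = 0.000509), and the receptor genes Itgam, at 1.67 ± 0.53 (0.0215), Itgb2, at 1.01 ± 0.30 (0.0139), and Lrp1, at 0.71 ± 0.21 (0.0127). Itgam and Itgb2 encode the 2 chains of complement receptor 3, through which phagocytes bind C3 fragments, and Clu restrains the terminal pathway. Of the complement receptor genes, 10 were tested here and 7 between the strains at 4 months. Some of the 10 thus passed the filter on low values only because of the older group. In that group Itgam and Itgb2 reached 1 in block 2 alone. Their calls and the count of higher genes are therefore not read as results. The lower ones were Sez6l, Csmd3, Sez6 and Cd46, of which the first 3 belong to neuronal families with complement-inhibitor domains. Sez6l fell by 1.86 ± 0.45 (limma adjusted p = 0.00326).

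Levels of these genes also differed by block. Itgam was at 0 in the 6 DBA/2J libraries of block 1, between 0 and 0.101 in the 3 of block 3 at 9 months, and from 1.06 to 43.1 in the 16 of block 2. Itgb2 was at 0 in the 9-month DBA/2J libraries of blocks 1 and 3 and from 0.504 to 6.28 in block 2. Clu had 9-month medians in DBA/2J of 530 in block 1, 307 in block 2 and 86.8 in block 3, against 99.8 at 4 months. In block 3 alone 0 of 30 tested genes were called with age, and Clu was at -0.13 ± 0.38 and Lrp1 at -0.39 ± 0.17 on the log2 scale (limma adjusted p = 0.942 and 0.396).

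**Figure D4:**
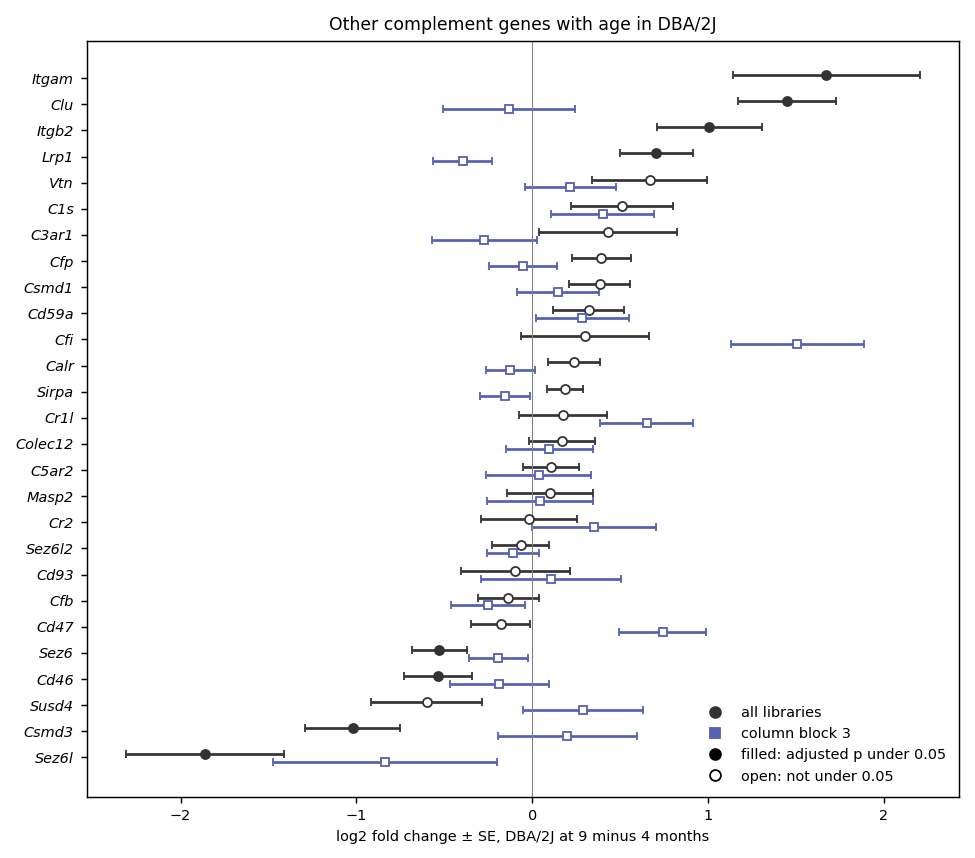
Log2 fold change with its standard error (x axis) of 27 other complement genes tested for age in DBA/2J (y axis), over all libraries (dark circles) and in block 3 (blue squares, where tested). Filled symbols have an adjusted p under 0.05. Itgam, Clu, Itgb2 and Lrp1 are higher over all libraries, and no gene shown is called in block 3. The calls of Itgam and Itgb2 are not read as results.

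With nicotinamide, 30 other complement genes were tested, and 3 were higher and 4 lower, beside 1362 higher and 743 lower of all 13925 genes. Higher ones were thus about as frequent as among all genes. Among the lower ones, Clu fell by 1.27 ± 0.31, Lrp1 by 0.90 ± 0.24 and Itgb2 by 1.04 ± 0.35 on the log2 scale (SE, limma adjusted p = 0.00569, 0.0116 and 0.0417). Of the complement receptor genes, 10 were tested here and 7 in block 3, which holds every nicotinamide library. Some of the 10 thus passed the filter only because of the water group, in which Itgb2 reached 1 in block 2 alone. The call of Itgb2 and the count of lower genes are therefore not read as results. Sez6l rose by 2.50 ± 0.50, Cd46 by 0.79 ± 0.22 and Susd4 by 1.06 ± 0.35 (SE, limma adjusted p = 0.00105, 0.0125 and 0.0370). In block 3 none of 25 tested genes were called, and Sez6l was at 1.47 ± 0.48 (limma adjusted p = 0.174). Limma called 0 of the other complement genes tested in the remaining comparisons.

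Among the members themselves, C4b and Serping1 varied together over the 16 DBA/2J libraries of block 2. Their Pearson correlation of log2 values was 0.69 (permutation p = 0.00284, adjusted p = 0.0256 over 9 pairs) and Spearman's rho was 0.79 (permutation p = 0.00035, adjusted p = 0.00315). Without the 2 libraries farthest from the median of C4b, r was 0.75. C3 correlated with C4b at 0.25 and with Serping1 at 0.26 (Pearson, permutation p = 0.336 and 0.333), and neither passed. Spearman's rho was 0.37 for both (permutation p = 0.158 for each, adjusted p = 0.356). The other 6 pairs computed were of C1q genes in libraries split by their own sum, and are not read.

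The genes most like each member were ranked by Spearman correlation over the 61 libraries after the mean of each group and block was taken out, among 12255 genes, as a description with no test. For C3 these were Klf4 at 0.55, Lcn2, Epha2, Klhdc5 and Gpr182. For C4b they were Setbp1 at 0.67, Osmr, Gpr126, Adamts1 and Trf. Osmr is the receptor of oncostatin M. For Serping1 they were Ifitm2 at 0.61, Lgals3bp, Elovl1, Prph and Gfap.

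None of the 5 named for each C1q gene was among those named for C3, C4b and Serping1. For C1qa they were Unc93b1 at 0.66, Laptm5, Cd180, Csf1r and Itgam. C1qb had Ly86 at 0.77, Csf1r, Slfn8, Gpr34 and Fcer1g. C1qc had Arsb at 0.63, Nckap1l, Fscn1, Slfn8 and Laptm5. Csf1r, Gpr34, Fcer1g, Laptm5 and Itgam are genes of microglia and other myeloid cells.

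Lcn2, a secreted protein of reactive astrocytes and second among the genes most like C3, had a median of 0.129 in DBA/2J at 4 months and 4.89 at 9 months. Its log2 fold change with age was 2.15 ± 0.30 (SE, limma adjusted p = 2.18e-05), and in block 3 it was 1.41 ± 0.33 (0.0806). With a 4-month median under 1, Lcn2 could be tested over all libraries only because of the 9-month group. Gfap was 1.27 ± 0.33 higher with age in DBA/2J (SE, limma adjusted p = 0.00525) and 1.61 ± 0.37 in block 3 (0.0807). Of 12 reactive glia genes tested, 10 were higher with age in DBA/2J over all libraries, beside 9.25% of 13587 genes. In block 3, 3 of 12 were higher, beside 0.219% of 13670 genes, and 0 were lower in both fits. Between the strains at 4 months only 9 genes of this list could be tested. At least Lcn2 passed the filter only because of the 9-month group, so the count over all libraries is no test. Müller glia genes went the other way between the fits, with a median log2 fold change over 13 genes of 0.80 over all libraries, where 5 were higher, and -1.36 in block 3, where 0 were called. There Glul was at -1.65 ± 0.57 and Rlbp1 at -1.43 ± 0.53 (SE, limma adjusted p = 0.293 and 0.342). The part of glia in the values of the 3 members was not tested.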

How the data were processed

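RNA of sorted Thy1.2-positive retinal cells was sequenced in 61 libraries. The submitters' processing notes name TopHat2 2.0.7, Bowtie2 2.0.6, HTSeq and the build mm10. The deposited values are a linear signal, which the authors obtained from gene counts scaled by library. The labels do not give the scaling used. Of 15171 table entries, 22 whose names had become dates were left out. All positive values (100%) were whole multiples of 1 step per column within 0.05, so whole reads could be recovered. The least different 2 libraries had a chi-squared per gene of 6.54, so none was counted as a duplicate. Columns were matched to groups, not to single samples, and 0 columns were unused.

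The members, lists and tests were chosen with earlier results of these data known. Fits used limma 3.58.1 in R 4.3.3 (trended, robust) on log2 of the value plus 1. Each fit held the groups compared, and a gene had to reach 1 in as many libraries as its smaller group has. The threshold was a Benjamini-Hochberg adjusted p of 0.05. The code was tested on simulated data. Alternatives were other pseudocounts, filters and scalings, all 5 groups in 1 fit, the block as a term, each library left out, and edgeR 4.0.16 and DESeq2 1.42.0 on recovered reads. Blocks were set by column order after values were seen, and their counts per group equal those of 3 series of sample numbers in the labels. All 6 members were named, up to 8 other complement genes called per comparison, and the 5 most alike genes per member. Values of 1 of the other complement genes are not reported here. Gene positions and exon lengths came from GENCODE vM21 and promoters from RefSeq.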

Additional observations from a re-analysis of the deposited data

Results flagged for a closer look

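Of 21 sets of values in groups of 4 to 10 libraries, 9 had 1 library far from the others by Dixon's criterion. Chance meets it in about 1 in 20 sets of normally distributed values. Values were taken without a log, so this share need not hold for them. For Serping1 the libraries were nicotinamide library 2 at 35.19, where the next value was 7.475, and 4-month DBA/2J library 9 at 7.819, next to 4.643. For C4b it was 4-month D2-Gpnmb+ library 1 at 5.092, next to 2.27.

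The other 6 concern C1q genes at 7 reads or fewer. Where 1 library has reads and the others have 0 the criterion is always met, so the share that chance gives does not apply to them. C1qa was 0.1102 in 4-month D2-Gpnmb+ library 10, from 1 read, with 0 in the others. C1qb was 0.07855 in nicotinamide library 2 and 0.197 in 4-month D2-Gpnmb+ library 6, each from 1 read, and 0.8813 in 4-month DBA/2J library 10, from 7 reads. C1qc was 0.3898 in 9-month D2-Gpnmb+ library 8, which is in block 2, and 0.5177 in 4-month DBA/2J library 1, each from 6 reads.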

How the results depend on the processing

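Values of single members kept their direction and their side of the threshold under 463 alternatives, newly passed under 30, no longer passed under 24 and changed sign under 9. In fits that left out 1 library these numbers were 1238, 11, 74 and 7. The cause of the changes below was not tested. No paired analysis was possible because the labels give sample numbers that groups do not share, and columns could not be matched to single samples.

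Counts of members called for age in DBA/2J were 3 with a filter at 5, 3 without block 2, where only 3 could be tested, and 0 with the block as a term, which turned C1qc to -0.073. For nicotinamide they were 2 with a pseudocount of 2, 1 scaled to the library total and 0 with the block as a term, where C1qc was 0.11. For strain at 9 months they were 3 with all 5 groups in 1 fit and 3 with DESeq2. For age in D2-Gpnmb+ they were 2 with all 5 groups, edgeR, DESeq2 or without block 2, and Serping1 was -0.055 with the block as a term. For nicotinamide against 4-month DBA/2J they were 1 with edgeR and with DESeq2. Against D2-Gpnmb+, C3, C4b and Serping1 turned to 0.32, 0.87 and 0.84 with the block as a term and to 0.095, 0.46 and 0.53 without block 1. In block 3, DESeq2 called 1 for strain at 9 months and 1 for strain by age. For age in DBA/2J there, 0 were called with a pseudocount of 2 or a filter at 5, 3 with all 5 groups, and 2 with edgeR and with DESeq2.

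Leaving out 1 library, counts ran from 4 to 6 for age in DBA/2J, 1 to 4 for nicotinamide, 0 to 2 for age in D2-Gpnmb+ and 0 to 1 for nicotinamide against 4-month DBA/2J. In block 3 they ran from 0 to 2 for age in DBA/2J and 0 to 1 for strain by age. C3 against D2-Gpnmb+ with nicotinamide ran from -0.34 to 0.059 over all libraries, the sign turning without D2-Gpnmb+ library 4 or 8 or nicotinamide library 7, and from -0.13 to 0.60 in block 3, turning without D2-Gpnmb+ library 13. With age in D2-Gpnmb+ in block 3, C3 ran from -0.036 to 0.70, turning without 9-month library 14, and Serping1 from -0.26 to 0.20, turning without 9-month library 13 or 4-month library 4. Below about 3 reads a library, as for C1q in blocks 1 and 3, differences were not detectable at this depth.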
